A study of Mus musculus with 12 samples.

Results

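The comparison set migratory type 1 conventional dendritic cells (cDC1) of the skin-draining lymph nodes against cDC1 of the spleen, in the Cre-carrying mice of the study. Its members were chosen by their titles alone: the 3 lymph node arrays and the 3 spleen arrays labelled Xcr1 Cre, which are 6 of the 12 arrays in all. The study asked how gene expression of cDC1 at rest differs when these cells can or cannot make CD40, a TNF receptor family member that CD4+ T cells engage through CD40 ligand. It placed sorted cells from 2 organs and 2 genotypes on Affymetrix arrays, with 3 arrays in each of the 4 groups. Every mouse was C57BL/6, naive and homozygous for a loxP-flanked Cd40 allele (Cd40 fl/fl), so the control mice carried that allele too. The groups compared here were heterozygous for the cDC1-specific Xcr1-cre allele (Xcr1 Cre/+), meant to delete Cd40 in cDC1, and the control mice had no Cre (Xcr1 +/+). Splenic cells were sorted as CD11c high and lymph node cells as CD11c intermediate and migratory, and both were B220-, MHC II high, XCR1+ and Sirpa-. Tissue, CD11c gate and migratory state changed together and cannot be told apart. The ages of the mice, the number of mice behind each array and whether replicates came from separate mice were not given in the sources used here, so each p-value measures the spread between these samples, which may be technical.

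cDC1 are the dendritic cells that take up dead cells and present their antigens on MHC class I to CD8+ T cells. In the spleen they live as resident cells that enter from the blood as precursors. In skin, a share of cDC1 matures without infection, gains the chemokine receptor CCR7 and travels through lymph to the draining node, where these cells are known for high surface MHC, costimulatory molecules and the actin-bundling protein fascin.

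The deposited values are RMA intensities, a linear brightness per probe set after background correction and normalization between arrays. Differences below are log2 lymph node minus log2 spleen, means of 3 arrays a group, with the standard error (SE) and the adjusted p of limma's moderated test over 19938 genes. A gene is called higher or lower, or is said to have risen or fallen, where that adjusted p was under 0.05. Background was set at 22.2, the brightest value that any of 3 Y-linked genes reached on the 12 arrays, and 85.8% to 90.3% of genes lay above it on an array. In bulk samples, fewer cells of a type and less RNA per cell cannot be told apart. The arrays read RNA, so the surface levels of MHC and costimulatory molecules were not measured by them.

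The targeted gene did not follow every label. Cd40 measured 365, 214 and 569.5 in the spleen and 1427, 1388 and 3358 in the lymph node on replicates 1, 2 and 3. On the control arrays the values were 572, 525 and 309 in the spleen and 2138, 2777 and 1542 in the lymph node, so replicates 1 and 2 were lower on the arrays labelled Cre while replicate 3 was higher in both organs. Whether this probe set reads the deleted part of the gene was not examined here. The 6 arrays are therefore called the arrays labelled Cre, and counts were repeated without the replicate 3 arrays. Replicate 1 stood apart in another way: on the principal components of the 6 arrays the first (81.8% of the variance) separated the organs, and the second (12.2%) set both replicate 1 arrays, at 25.9 and 31.3, apart from the other 4, at -19.8 to -11.1.

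The sort labels were checked against cell markers. Xcr1, the receptor used in the sort, measured 1945, 3406 and 3387 in the spleen and 224, 267 and 236 in the lymph node, so it was far above background in both organs and lower in every lymph node array. It fell by 3.55 on the log2 scale (SE 0.22, limma adjusted p = 3.81e-08). Clec9a, the receptor for actin exposed on dead cells, measured 3636, 5562 and 5374 in the spleen and 277, 314 and 231 in the lymph node and did the same. Sirpa, the cDC2 marker that was sorted against, measured 92.0, 78.2 and 76.8 in the spleen and 90.2, 139 and 111 in the lymph node and was not called (0.44, limma adjusted p = 0.0528). Batf3 and Irf8, transcription factors that cDC1 need, were bright in both organs, at 1643 to 2768 and 3385 to 5870.0.

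Markers of other cells were then examined, against 13.1% of all genes called higher and 15.2% called lower. When arrays were left out, the counts over all genes changed too, as given further below. Some of the genes that define those cells were near background and others were not. Cd79a of B cells, Ncr1 of NK cells, Cd163 of red pulp macrophages and Ly6g and S100a8 of neutrophils lay between 19.9 and 30.8 on the 6 arrays, at or just above background. Among 14 measured T cell markers, 10 were called higher and 1 lower, and their summed intensity was 1636 to 2735 in the lymph node against 1318 to 1548 in the spleen. Cd3g, a chain of the T cell receptor complex, measured 138, 58.9 and 68.8 in the spleen and 513, 116 and 236 in the lymph node, so lymph node replicate 2 lay under spleen replicate 1. Without lymph node replicate 3, spleen replicate 2 or spleen replicate 3, the T cell count was 6, 4 or 6 higher, and 3 without both replicate 3 arrays. Among 19 macrophage and monocyte markers, 1 was called higher and 8 lower, and the sum was 1945 to 2208 in the lymph node against 5684 to 7768 in the spleen. Lyz2 (-3.76), Hmox1 (-2.4) and Ccr2 (-2.05) fell, whereas Spic, a regulator of red pulp macrophages, did not pass (-0.08). Of 13 B cell markers none was called higher and 3 lower (1 and 3 with the replicate number as a block or without lymph node replicate 3), among them Fcrla (-3.36) and Ms4a1 (-2.53), and the sum was 594 to 715 in the lymph node against 1449 to 1524 in the spleen.

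Of 13 markers of Langerhans cells and keratinocytes, which are cells of the skin, 7 were called higher and 1 lower. Their sum was 1669 to 1915 in the lymph node against 999 to 1340 in the spleen. The junction proteins Cldn1 (1.96) and Epcam (1.27) rose. Cd207, which encodes langerin, measured 528, 337 and 345 in the spleen and 219, 138 and 124 in the lymph node. It fell by 1.34 on the log2 scale, and it is also a member of the cDC1 list below, so its fall is not particular to Langerhans cells. Without Cldn1, the brightest of this list, the other 12 summed to 773 to 936 in the lymph node and 804 to 1055 in the spleen, so the higher sum rested on that gene. Krt14 reached at most 57.8 on any of the 6 arrays, and Krt5 42.5. The cDC2 list had 3 members higher and 3 lower of 13, with a sum of 5574 to 6624 against 2763 to 2853. That sum rested on S100a4, and without it the other 12 members summed to 1664 to 1786 in the lymph node and 2635 to 2667 in the spleen. The plasmacytoid list had 2 higher and 2 lower of 10, and 1 and 1 without lymph node replicate 2 or 3, or spleen replicate 2 or 3, with a sum of 3081 to 4043 against 2700.4 to 3410. Without Bst2, its brightest member, the sum was 1114 to 1176 against 1189 to 1277. In the NK list 1 of 12 fell, Klrk1 (-2.04), and with the block 3 were lower and 1 higher. Its sum was 687 to 991 against 1269 to 1491, and without Klrk1 522 to 771 against 554 to 837, which overlap. Of 13 neutrophil markers 1 was called higher, a share under that of all genes, and none was when lymph node replicate 1 or 3 or any 1 spleen replicate was left out. Their sum was 440 to 488 against 419 to 446. Of 7 erythroid markers 1 was called lower, with 328 to 362 against 375 to 396. Of 16 stromal and endothelial markers 4 were called higher and 2 lower, with overlapping sums of 1452 to 1977 and 1473 to 1562. Without Ccl19, the brightest of them, the sum was 1023 to 1094 against 1331 to 1467. The part of any of these cells in the differences below was not tested.

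The organs differed across much of the transcriptome. Of 19938 genes tested, 5648 (28.3%) were called, 2618 (13.1%) higher and 3030 (15.2%) lower in the lymph node. Change of over 2-fold, by limma's treat test, was called for 392 genes (1.97%) higher and 577 genes (2.89%) lower. The 6 arrays did not overlap for 4460 genes higher in the lymph node (22.4%) and 3733 lower (18.7%). The median difference over all genes was 0.07, and the median SE was 0.14. Among called genes, 24 rose and 26 fell by 16-fold or more. Of the called genes, 2612 of 2618 higher and 3026 of 3030 lower had the same direction in each of the 3 pairs of same-numbered arrays. They were called on these same arrays, which favours such agreement, so it is no separate support. With the replicate number as a block, 4093 genes were called higher and 4075 lower. Without the replicate 3 arrays, which leaves 2 arrays a group, 1333 were called higher and 1761 lower, and without the replicate 2 arrays 1308 and 1773.

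**Figure D1:**
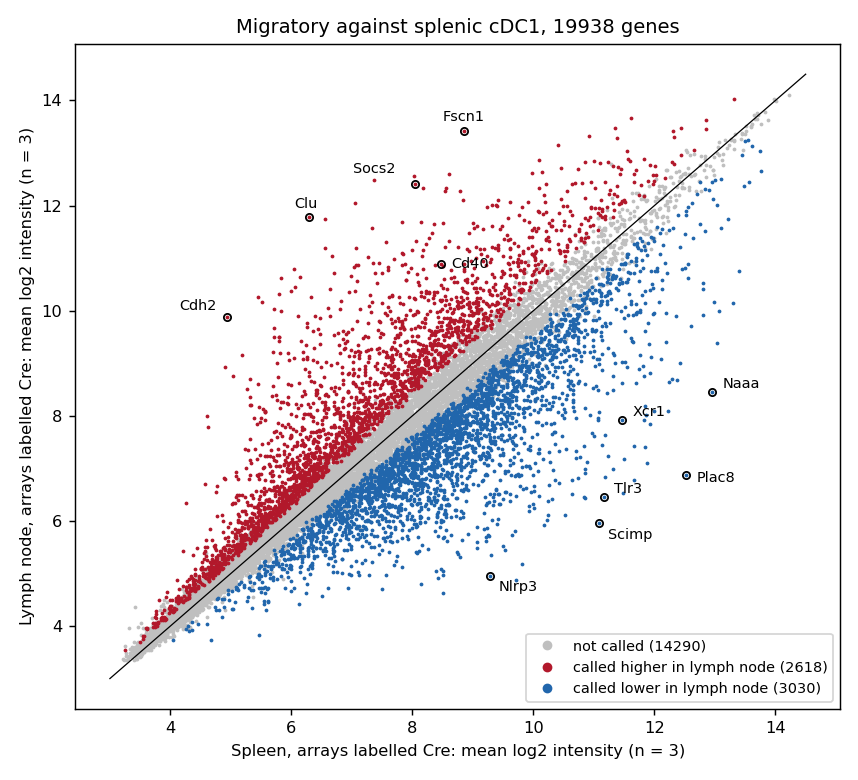
Each point is 1 of 19938 genes, with its mean log2 intensity over the 3 spleen arrays on the x axis and over the 3 lymph node arrays on the y axis, all labelled Cre; red and blue mark the 2618 genes called higher and the 3030 called lower in the lymph node, and the line marks equal levels. The named genes lie far from the line, such as Clu 5.48 above it and Plac8 5.64 below it on the log2 scale.

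The largest rise was that of Clu, which encodes clusterin, a secreted chaperone that binds cell debris. Clu measured 102, 57.8 and 82.2 in the spleen and 3783, 3739.6 and 3048 in the lymph node on replicates 1, 2 and 3. The organs did not overlap on any array, and Clu rose by 5.48 (SE 0.23, limma adjusted p = 2.52e-09). Next came Sema6d, a transmembrane semaphorin (difference 5.18, SE 0.29, limma adjusted p = 1.85e-08), and H2-M2, a nonclassical MHC class I gene. H2-M2 measured 262, 118 and 146 in the spleen and 5219.9, 6417 and 5583 in the lymph node on replicates 1, 2 and 3. Cdh2, which encodes N-cadherin, a calcium-dependent adhesion molecule, measured 28.8, 33.9 and 28.9 in the spleen and 847, 1095 and 900.2 in the lymph node. The spleen arrays were close to background, and Cdh2 rose by 4.95 (SE 0.15, limma adjusted p = 1.28e-10). F11r, the junctional adhesion molecule JAM-A, measured 58.0, 55.0 and 55.9 in the spleen and 854, 2468 and 1889 in the lymph node. Its lymph node replicate 1 was lower than the other 2, and all 3 lymph node arrays were above all spleen arrays (difference 4.81, SE 0.37, limma adjusted p = 2.8e-07).

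Fscn1, which encodes fascin and bundles the actin of dendritic processes, measured 407, 362 and 674 in the spleen and 6924, 13995 and 13185 in the lymph node. It rose by 4.55 (SE 0.29, limma adjusted p = 5.87e-08), and lymph node replicate 1 was again the dimmest of its group. Socs2, an inhibitor of cytokine receptor signalling, measured 272, 216 and 311 in the spleen and 4918, 5672 and 5835 in the lymph node, with no overlap between the organs, and rose by 4.37 (SE 0.16, limma adjusted p = 5.86e-10). Il15ra, which presents IL-15 to T cells and NK cells in trans, measured 175, 138 and 177 in the spleen and 2595, 3458 and 3229 in the lymph node and rose by 4.24 (SE 0.18, limma adjusted p = 2.52e-09). The calcium-binding genes S100a4 (4.99) and Anxa3 (4.54), the bridging protein gene Mfge8 (4.38), which links dying cells to integrins, the Notch ligand Jag1 (4.31) and glycogen phosphorylase Pygl (4.65) were also among the 20 largest rises. The remaining ones were Mtss2 (4.82), Insl6 (4.74), Tmem150c (4.64), Elobl (4.52), Slco5a1 (4.51), Heatr9 (4.38) and the bicarbonate transporter Slc4a8 (4.38).

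Plac8 fell most. Plac8 measured 6568, 5848 and 5270.2 in the spleen and 199.7, 82.0 and 100.5 in the lymph node on replicates 1, 2 and 3. All lymph node arrays were under all spleen arrays, and Plac8 fell by 5.64 on the log2 scale (SE 0.27, limma adjusted p = 5.41e-09). Scimp, an adaptor of Toll-like receptor signalling in antigen-presenting cells, measured 2302, 2242 and 1968 in the spleen and 88.2, 49.0 and 56.4 in the lymph node and fell by 5.12 on the log2 scale (SE 0.24, limma adjusted p = 4.27e-09). Havcr2, which encodes the inhibitory receptor TIM-3, measured 2299, 4062 and 3723 in the spleen and 115, 124 and 90.7 in the lymph node. It fell by 4.91 on the log2 scale (SE 0.24, limma adjusted p = 5.57e-09). Tlr3, the endosomal receptor for double-stranded RNA, measured 1653, 3145 and 2286 in the spleen and 84.7, 104 and 77.7 in the lymph node. All lymph node values were under 105, and Tlr3 fell by 4.69 on the log2 scale (SE 0.22, limma adjusted p = 4.82e-09).

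Nlrp3, the sensor of an inflammasome, measured 582, 658 and 622 in the spleen and 34.0, 29.3 and 29.7 in the lymph node and was close to background in the lymph node (difference -4.32, SE 0.12, limma adjusted p = 1.12e-10). Naaa, a lysosomal amidase known from cDC1, measured 6261, 8971 and 8876 in the spleen and 338, 494 and 262 in the lymph node, and Cd36, a scavenger receptor for lipids and dead cells, measured 1533, 2024 and 1972 in the spleen and 104, 83.7 and 77.1 in the lymph node. Both groups were fully apart for these genes, with differences of -4.49 and -4.39. Other large falls were those of the transporters Slc9a9 (-4.95) and Slco3a1 (-4.34), kynurenine monooxygenase Kmo (-4.85), the receptors Treml4 (-4.77), Cd244a (-4.42), P2ry14 (-4.34), which binds UDP-sugars, and Tnfrsf21 (-4.26), and the small GTPase Rab7b (-4.43). Serpinb8 (-4.63), Tifab (-4.41), Cyth4 (-4.31), Tm6sf1 (-4.25) and the creatine synthesis enzyme Gatm (-4.22) completed the 20. Without the replicate 3 arrays, and without the replicate 1 arrays, each of these 40 genes kept its direction and its call. They were picked for large differences on the same arrays, which favours this.

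**Figure D2:**
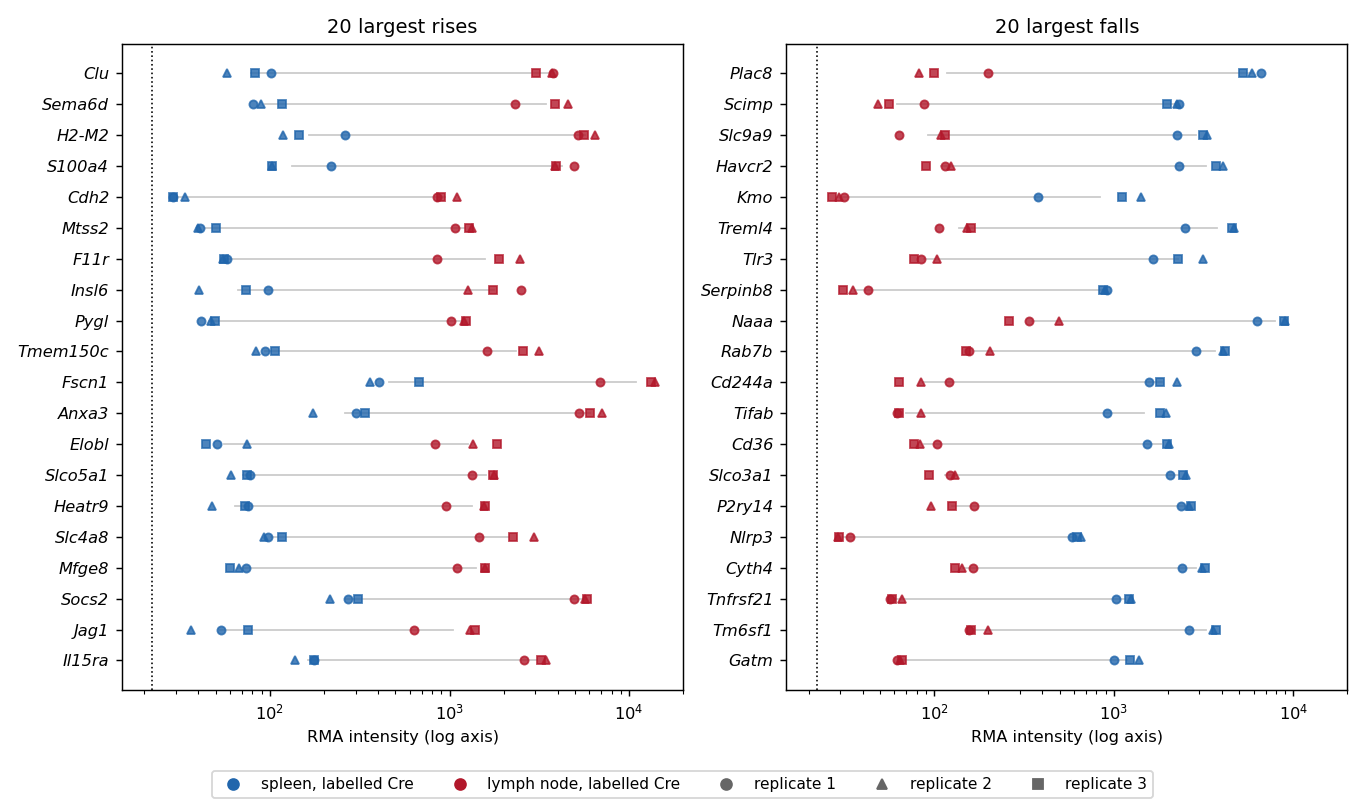
Points are RMA intensities (log axis) on the 6 arrays labelled Cre for the 20 genes with the largest rises (left) and falls (right), blue for spleen and red for lymph node, with a shape for each replicate; grey lines join the group means and the dotted line is the background of 22.2. No lymph node point overlaps a spleen point of the same gene, since the genes were chosen among those whose arrays do not overlap, and Nlrp3 in the lymph node (29.3 to 34.0) lies near background.

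Genes were then grouped by role. The lists were chosen with earlier results of these data known, so their counts are a description and not a test. Each list is read against the shares over all genes, 13.1% higher and 15.2% lower, and a count near them, such as 4 of 30 higher for dead cell uptake, is no result about that list.

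The genes of migration and maturation rose nearly as a group. Of 48 measured members of a list of genes known from migratory dendritic cells, 42 were called higher and 2 lower, with a median difference of 2.02 against 0.07 over all genes. The list includes Fscn1, Socs2, Il15ra, H2-M2, Anxa3 and Slco5a1, which are among the largest rises above. Ccr7, the receptor that guides cells along CCL21 to the lymph node, measured 3439, 2329 and 3397 in the spleen and 7729, 8903 and 8706 in the lymph node. Its splenic arrays were already bright, and it rose by 1.49 (SE 0.15, limma adjusted p = 4.94e-06). Ccl22 (3.48) and Ccl17 (2.88), ligands of CCR4 on T cells, and Il15 (3.29) rose. Cd40 rose by 2.41 (SE 0.40, limma adjusted p = 0.000324), a ratio of 3.91, 6.49 and 5.90 in replicates 1, 2 and 3, with no overlap between the organs. Its treat adjusted p in limma, against a 2-fold change, was 0.0357, and an exact two-sided permutation test of these 3 against 3 arrays gave p = 0.1, the smallest it can give. Cd80 and Cd86 were the 2 members that fell, and Cd83 did not pass (-0.06, limma adjusted p = 0.835).

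**Figure D3:**
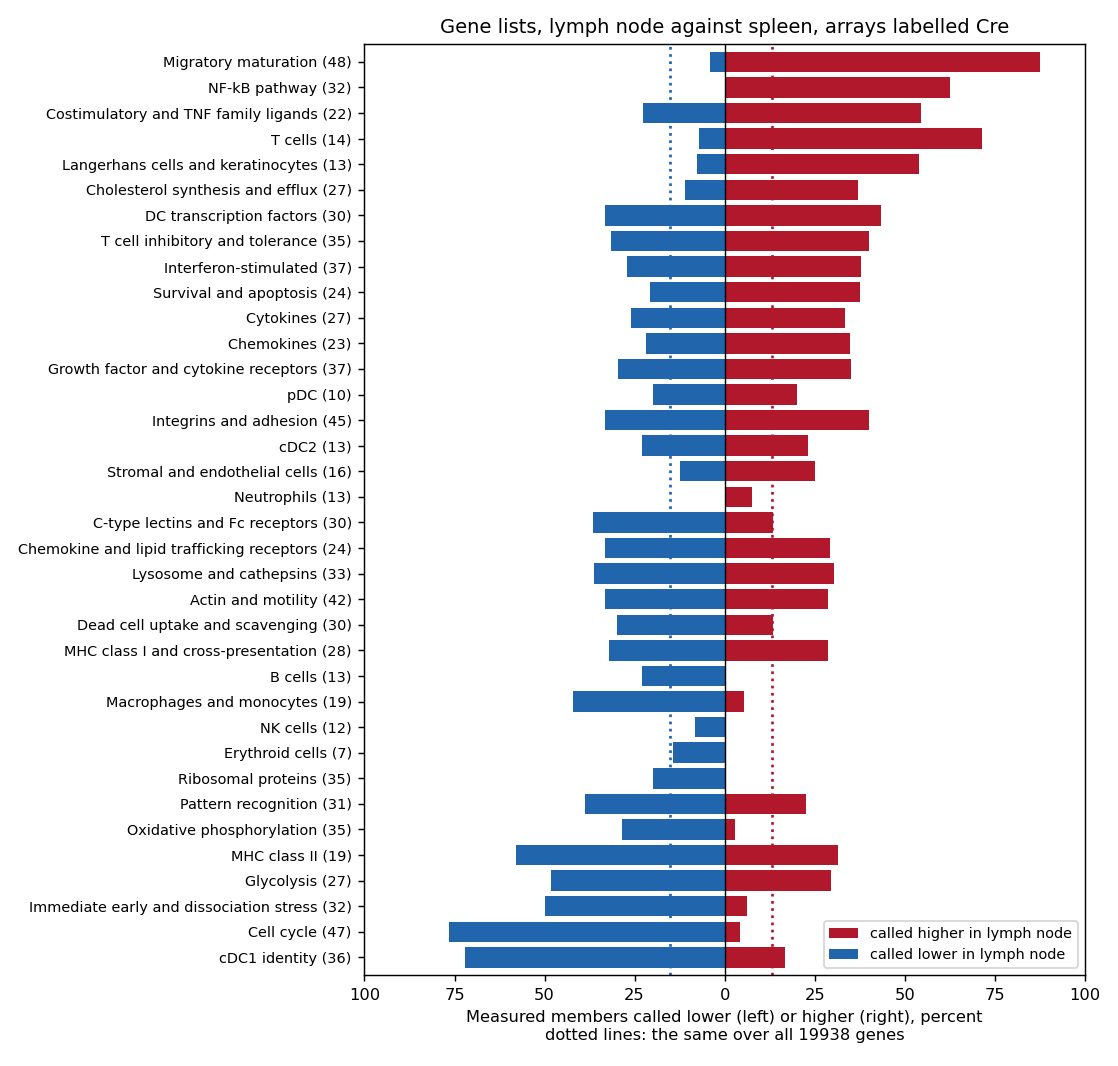
Bars give the percent of the measured members (number in parentheses) of each of 36 gene lists called higher (red, right) or lower (blue, left) in the lymph node on the arrays labelled Cre, ordered by the median difference; dotted lines give the same share over all 19938 genes, 13.1% and 15.2%. Migratory maturation (42 of 48 higher) is at one end, and cDC1 identity (26 of 36 lower) and cell cycle (36 of 47 lower) are at the other. The lists were chosen with earlier results of these data known.

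Genes that mark cDC1 moved the other way. Of 36 measured, 6 were called higher and 26 lower, with a median of -2.74. Tlr3, Naaa, Rab7b and Cd36, among the largest falls above, are members of this list. Clec9a fell by 4.13 on the log2 scale (SE 0.23, limma adjusted p = 1.63e-08), and Wdfy4, which cDC1 need for cross-presentation, measured 7441, 9293 and 8648 in the spleen and 745, 780.0 and 504 in the lymph node (-3.66). The integrin genes Itgae (-2.74), which encodes CD103, and Itgax (-2.79), which encodes the CD11c used in the gate, fell, as did the adhesion gene Cadm1 (-2.25). Itgax measured 3562, 5399 and 5328 in the spleen and 478, 938 and 698 in the lymph node, lower in every lymph node array, in the same direction as the gate. Ly75, the antigen-uptake lectin DEC-205, was among the 6 that rose (0.99). Without the replicate 3 arrays 3 members were called higher and 23 lower.

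Dendritic cell transcription factors split. Of 30 measured, 13 were called higher and 10 lower, with a median of 0.24, and 8 and 6 without the replicate 3 arrays. Irf4, which drives dendritic cell migration, measured 108, 139 and 121 in the spleen and 284, 459.9 and 349 in the lymph node and rose (1.55). Batf3 (0.56) and Id2 (0.89), which cDC1 need for their development, and Zbtb46 (0.46), a marker of conventional dendritic cells, rose by less than 2-fold. Irf8 (-0.36) was not called, with a limma adjusted p of 0.146. The falls included Mycl (-2.9), which supports cDC1 proliferation, and Runx3 (-1.71), and Ikzf4 rose (2.07).

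Trafficking receptors and chemokines changed gene by gene. Of 24 receptors, 7 were called higher and 8 lower (median 0.02), and 4 and 7 without the replicate 3 arrays. Besides Ccr7, S1pr1, the receptor for egress along sphingosine 1-phosphate, rose (2.02). Cxcr3 measured 1034, 1069 and 964 in the spleen and 116, 109 and 128 in the lymph node, with no overlap between the organs, and fell by 3.12 on the log2 scale (SE 0.15, limma adjusted p = 5.12e-09). Ccr9 (-2.6) and Gpr183 (-2.01), the oxysterol receptor that positions splenic dendritic cells, also fell. Of 23 chemokines, 8 rose and 5 fell (median 0.14). Ccl5 measured 559.7, 346 and 496 in the spleen and 5017, 4033 and 4250.1 in the lymph node (3.27), and Cx3cl1 (2.84) and Cxcl16 (1.32) rose too. Ccl19, which was counted among the stromal markers and not in this list, also rose (2.56). Ccl3 (-3.11) and the CXCR3 ligand Cxcl9 (-2.84) fell.

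Cytokines were likewise mixed. Of 27 measured, 9 were called higher and 7 lower (median 0.15), and 5 and 3 without the replicate 3 arrays. Il15 measured 386, 326 and 280.5 in the spleen and 3687, 2694 and 3349.9 in the lymph node, and rose by 3.29 (SE 0.22, limma adjusted p = 9.24e-08). Il12b, which encodes the p40 chain of IL-12, measured 1874, 3071 and 3778 in the spleen and 5100.5, 8218 and 6834 in the lymph node and rose (1.24). Csf1 measured 58.3, 65.7 and 63.4 in the spleen and 317, 396 and 1218 in the lymph node, where lymph node replicate 3 was well above the other 2 of its group (3.1). Il1b measured 3045, 4130.5 and 4063 in the spleen and 342, 248 and 207 in the lymph node, so the inflammasome substrate Il1b (-3.84) and Il18 (-1.82) fell beside Nlrp3 itself. Tgfb1 fell (-2.45), while Itgb8, a chain of the integrin that activates latent TGF-beta, measured 57.7, 54.4 and 54.8 in the spleen and 529, 716 and 1006 in the lymph node and rose (3.7).

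Transcripts of costimulatory genes were not uniform, and their surface protein was not measured. Of 22 costimulatory and TNF family genes, 12 were called higher and 5 lower, with a median of 0.96. Cd86, a ligand of CD28, measured 5887, 6535 and 6732 in the spleen and 2594, 2470.3 and 2963 in the lymph node, and fell by 1.26 on the log2 scale (SE 0.15, limma adjusted p = 1.48e-05). Cd80, the other CD28 ligand, fell too (-0.94). Rises were instead found for Cd70 (2.11), the ligand of CD27, Icosl (2.0), Tnfsf9 (2.04), which encodes 4-1BB ligand, and the receptors Tnfrsf4 (3.99) and Tnfrsf9 (3.32). Slamf1 measured 33.5, 29.6 and 27.6 in the spleen and 453, 501 and 499.5 in the lymph node, so it was near background in the spleen, and it rose by 4.0 (SE 0.12, limma adjusted p = 1.28e-10).

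Genes that restrain T cells also went both ways. Of 35 measured, 14 were called higher and 11 lower (median 0.18), and 9 and 8 without the replicate 3 arrays. The PD-1 ligands Cd274 (1.16) and Pdcd1lg2 (1.81), Cd200 (1.8) and arginase Arg2 (2.39) rose. Cd274 measured 503, 454 and 583 in the spleen and 949, 1300.3 and 1194 in the lymph node, with no overlap. Havcr2, Entpd1 (-3.64), the ectoenzyme CD39, and Btla (-3.37) fell. The tryptophan-degrading enzyme Ido1 measured 85.8, 74.2 and 83.0 in the spleen and 48.6, 57.5 and 46.5 in the lymph node and fell (-0.67), and Aldh1a2, which makes retinoic acid, was dim and rose by 0.43.

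In the MHC class II list more genes fell than rose, and both shares were above those of all genes. Besides class II chains the list holds other genes, among them Ctss, Ctsl, Lgmn, Ifi30, Cd4, Marchf1 and Nlrc5. Of 19 genes, 11 were called lower and 6 higher (median -0.41), and 7 and 4 without the replicate 3 arrays. Ciita, the master activator of class II genes, measured 736, 1926 and 1448 in the spleen and 86.2, 97.1 and 72.9 in the lymph node, and fell by 3.91 on the log2 scale (SE 0.36, limma adjusted p = 1.64e-06). H2-Ob, a chain of the peptide-loading modulator H2-O, measured 3665, 3857 and 3550.0 in the spleen and 349.6, 296 and 236 in the lymph node (-3.67). Its partner chain H2-Oa (-2.55) and the loading catalyst H2-DMa (-2.39) fell as well. The classical chains H2-Ab1 (-1.1), H2-Eb1 (-0.7) and H2-Aa (-0.3), and the invariant chain Cd74 (-0.49), fell by less. H2-Ab1 measured 13238, 14039 and 14264 in the spleen and 6804, 7399 and 5347 in the lymph node, so it was bright in both organs. H2-Eb2 rose (1.9).

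Of 28 class I and cross-presentation genes, 8 were called higher and 9 lower (median -0.01), and 4 and 5 without the replicate 3 arrays. B2m, the light chain of class I, measured 7096, 7136 and 7891 in the spleen and 12228, 12545 and 12938 in the lymph node and rose (0.77), and the proteasome activator Psme2 (0.98) and the peptide editor Tapbpl (1.82) rose as well. Wdfy4, Rac2 (-2.35), which controls phagosome acidity in cDC1, and Rab43 (-1.97), linked to cross-presentation by cDC1, fell.

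**Figure D4:**
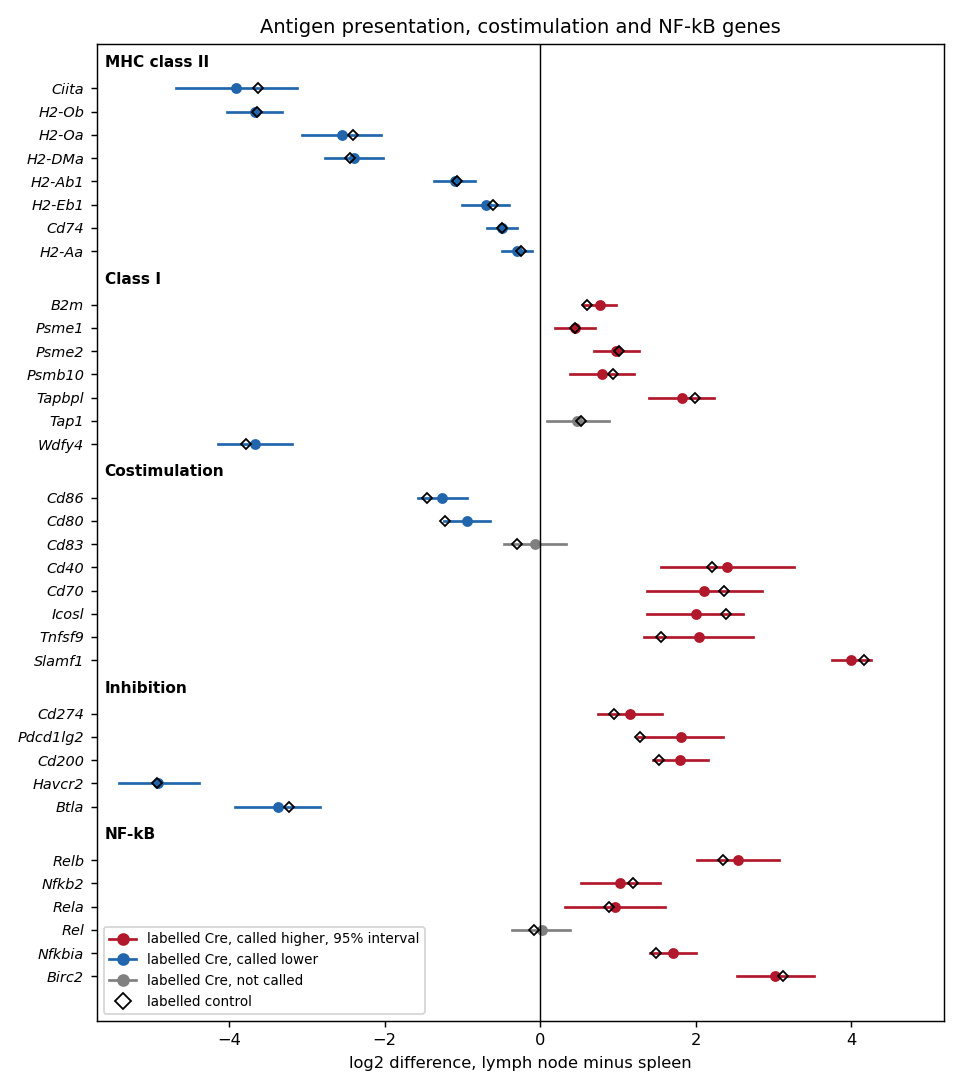
Filled circles are log2 differences, lymph node minus spleen, on the arrays labelled Cre, with 95% confidence intervals, red for called higher, blue for called lower and grey for not called; open diamonds are the same difference on the control arrays. The genes were chosen after their values were seen; Ciita (-3.91) and H2-Ob (-3.67) are the lowest of the class II genes, and Cd86 and Cd80 lie below 0 while Cd70, Icosl and Slamf1 lie above it.

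NF-kB genes were called higher more often than the 13.1% of all genes. This family of transcription factors has a canonical arm around Rela and Rel and a noncanonical arm, in which CD40 and related receptors release NIK and lead to Relb with Nfkb2. Of 32 measured genes, 20 were called higher and none lower, with a median of 0.96. With the replicate number as a block 23 were called higher and 2 lower, Map3k7 (-0.53) and Cyld (-0.38). Without the replicate 3 arrays 12 were called higher, and without the replicate 2 arrays 13. Relb measured 461, 422 and 595 in the spleen and 1944, 3655 and 3257 in the lymph node, and rose by 2.55 (SE 0.24, limma adjusted p = 2.42e-06). Nfkb2 rose less (1.03), Rela measured 313, 463 and 500.4 in the spleen and 478, 1057 and 1064 in the lymph node with overlap between the organs (0.96), and Rel was not called (0.02, limma adjusted p = 0.954). Birc2, which encodes the ubiquitin ligase cIAP1, measured 273, 293 and 340.3 in the spleen and 1952, 2871 and 2609.6 in the lymph node and rose (3.02). The inhibitors Nfkbia (1.71), Tnfaip3 (1.18) and Tnip1 (1.95) rose.

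The promoters of the genes called beyond 2-fold were searched for the kB consensus, the 10-base element that NF-kB dimers bind, on both strands. Of the 392 genes higher in the lymph node, 310 had a promoter in the RefSeq table (GRCm38.p6, 250 bases before to 50 after the gene start), and 37 of these (11.9%) held it. It was in 24 of 471 (5.1%) of the genes lower, in 897 of 15614 (5.7%) of all measured genes, in 950 (5.0%) of the 19177 promoters of these genes and in 12 of 25 (48.0%) of the NF-kB list. For comparison, the PU.1 and IRF composite, searched as GGAA and GAAA 2 bases apart on the same strand, either way round, was in 12 of 310 (3.9%), 20 of 471 (4.2%) and 465 of 15614 (3.0%). Overlapping matches count as 1 gene here, and a match is a description of letters, not evidence of binding. These 4 promoters are shown, from genes of different roles that moved, with matches to the kB consensus in capitals:
H2-M2: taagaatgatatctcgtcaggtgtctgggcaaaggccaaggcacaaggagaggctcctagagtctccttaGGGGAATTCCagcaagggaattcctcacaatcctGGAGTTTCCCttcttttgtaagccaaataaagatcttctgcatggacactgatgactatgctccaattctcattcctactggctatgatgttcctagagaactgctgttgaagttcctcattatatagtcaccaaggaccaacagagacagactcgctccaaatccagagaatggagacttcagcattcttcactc
Tnip1: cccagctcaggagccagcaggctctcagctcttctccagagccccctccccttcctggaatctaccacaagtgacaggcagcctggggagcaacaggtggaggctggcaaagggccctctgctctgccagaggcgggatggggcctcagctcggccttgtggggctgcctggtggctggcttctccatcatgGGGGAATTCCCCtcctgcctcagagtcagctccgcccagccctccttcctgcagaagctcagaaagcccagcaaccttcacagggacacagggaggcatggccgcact
Tnfrsf9: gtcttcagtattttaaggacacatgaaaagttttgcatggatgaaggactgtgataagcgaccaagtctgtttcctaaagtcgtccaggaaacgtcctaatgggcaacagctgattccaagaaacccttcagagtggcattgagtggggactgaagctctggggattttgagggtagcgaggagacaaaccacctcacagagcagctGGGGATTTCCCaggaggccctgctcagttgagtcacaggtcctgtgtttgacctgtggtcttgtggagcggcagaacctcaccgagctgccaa
Tlr3: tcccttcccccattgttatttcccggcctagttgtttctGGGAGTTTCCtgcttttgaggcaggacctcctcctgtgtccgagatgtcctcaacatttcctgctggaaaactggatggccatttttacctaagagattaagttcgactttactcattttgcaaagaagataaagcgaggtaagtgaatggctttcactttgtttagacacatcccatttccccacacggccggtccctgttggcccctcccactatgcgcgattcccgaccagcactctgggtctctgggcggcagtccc
H2-M2 (chr17:37483505-37483804, minus strand) held 2 matches, and its difference was 5.11. Tnip1 (chr11:54962891-54963190, minus strand) held 3 overlapping ones in the same run of capitals, and its values, 339, 282 and 296 in the spleen and 1037, 1362 and 1152 in the lymph node, were higher in every lymph node array. Tnfrsf9 (chr4:150927749-150928048, plus strand, 1 of 2 promoters the table gives for it) had 2 overlapping matches, with intensities of 163, 108 and 132 in the spleen and 1299, 1493 and 1190.1 in the lymph node. Tlr3 (chr8:45410331-45410630, minus strand) held 1 match although the gene fell (-4.69).

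Pattern recognition genes went both ways, with the largest differences downward. Of 31 pattern recognition genes, 7 were called higher and 12 lower (median -0.27). The higher count was 3 without lymph node replicate 1, 4 without spleen replicate 2, 3 without spleen replicate 3 and 2 without both replicate 3 arrays. Besides Tlr3 and Nlrp3, Cd180 measured 1334, 2239.6 and 2114 in the spleen and 81.6, 183 and 138 in the lymph node (-3.86), and Cd14, the coreceptor for lipopolysaccharide, measured 2388, 863 and 1285 in the spleen and 192, 74.6 and 82.0 in the lymph node (-3.71). The trafficking protein Unc93b1 (-1.55), which brings endosomal Toll-like receptors to their place, and the adaptor Myd88 (-1.68) fell. The inhibitor Irak3 (2.0) and Ly96 (1.91), which encodes MD-2, rose.

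In the lists of dead cell uptake genes and of lectins and Fc receptors, the higher counts were near the 13.1% of all genes. Their lower counts were above the 15.2% of all genes, and in the lysosomal list both counts were above these shares. Of 30 dead cell uptake and scavenging genes, 4 were called higher and 9 lower (median 0.00), and Cd36 and Scarb1 (-3.17) fell while Mfge8, Itgb5 (2.03), a chain of the integrin that MFG-E8 binds, and Axl (0.64) rose. Of 30 C-type lectins and Fc receptors, 4 were called higher and 11 lower (median 0.04), and 2 and 6 without the replicate 3 arrays. Fcgr2b, the inhibitory Fc receptor, measured 753, 983 and 865 in the spleen and 135, 135 and 94.1 in the lymph node (-2.85). Of 33 lysosomal genes, 10 were called higher and 12 lower (median 0.00), and 4 and 9 without the replicate 3 arrays. Within that list the acid lipase Lipa (-3.38) and the mannosidase Man2b1 (-3.04) fell, and the membrane proteins Cd63 (2.12) and Lamp1 (1.87) rose.

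Adhesion and cytoskeletal genes went both ways. Of 45 integrin and adhesion genes, 18 were called higher and 15 lower (median 0.13). Itgal measured 825, 1292 and 1215 in the spleen and 67.2, 104 and 99.6 in the lymph node and Itgb2, the other chain of LFA-1, measured 1578, 1844 and 1818 in the spleen and 182, 147 and 123 in the lymph node. Both fell (-3.62 and -3.55), as did Pecam1 (-3.18), whereas Cdh2, F11r, Itgb8 and Plxnd1 (2.65), a semaphorin receptor, rose. Of 42 actin and motility genes, 12 were called higher and 14 lower (median 0.00), with 9 lower without the replicate 3 arrays. Fscn1, Cdc42ep3 (3.26), an effector of CDC42, and Swap70 (2.2) rose, and Iqgap2 (-3.68), Myo1f (-3.57) and Coro1a (-1.92) fell.

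Interferon-stimulated genes did not move together. Of 37 measured, 14 were called higher and 10 lower (median 0.17). Irf1 measured 238, 207 and 292 in the spleen and 1239, 1813 and 2234 in the lymph node (2.82), and the guanylate-binding protein genes Gbp5 (3.47) and Gbp4 (2.58) and Ifit1 (1.77) rose. Irf7, the amplifier of type I interferon, measured 958, 1079 and 940.5 in the spleen and 168, 174 and 169.6 in the lymph node and fell (-2.54), as did Ly6e (-2.65).

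More immediate early and dissociation stress genes fell than rose. Of 32 measured, 2 were called higher, 16 lower and 14 not called (median -0.63), and none higher and 12 lower without the replicate 3 arrays. Nr4a1, an early response gene of antigen and stress signals, measured 4849, 10789 and 10252 in the spleen and 803, 1322 and 1402 in the lymph node (-2.83). Egr2 measured 1072, 3972 and 2356 in the spleen and 219, 307 and 228 in the lymph node (-3.12), with a wide spread in the spleen, and the heat shock gene Hsph1 fell too (-2.86). Klf6 was 1 of the 2 that rose (0.93).

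Cell cycle genes were lower. Of 47 measured, 36 were called lower and 2 higher, with a median of -1.28. Mki67, the proliferation antigen Ki-67, measured 745, 1330.3 and 1128 in the spleen and 329.5, 305 and 321 in the lymph node, and fell by 1.71 on the log2 scale (SE 0.19, limma adjusted p = 7.83e-06). Stmn1 measured 2401, 2749.6 and 2495 in the spleen and 589, 273 and 289 in the lymph node (-2.82), and the mitotic cyclin Ccnb2 (-2.77), topoisomerase Top2a (-1.92) and the replication clamp Pcna (-1.68) fell. The 2 that rose were Rb1 (1.15), a brake on entry into S phase, and Ccnd2 (0.65), whose arrays overlapped between the organs, and neither was called without the replicate 3 arrays. Of 24 survival genes, 9 were called higher and 5 lower (median 0.16), with 3 lower without the replicate 3 arrays. Cflar, an inhibitor of caspase 8, measured 913, 494 and 656 in the spleen and 4066, 4167 and 4176 in the lymph node (2.63). Bcl2l1 (1.5) rose while its relative Bcl2 (-0.83) and the caspase gene Casp6 (-1.99) fell.

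Metabolic genes also went both ways. Of 27 cholesterol genes, 10 were called higher and 3 lower (median 0.26), with 5 lower under the replicate block. Idi1 measured 36.3, 37.9 and 46.0 in the spleen and 441, 406 and 403 in the lymph node (3.38), and Fdft1 (2.38), which makes squalene, and the exporter Abcg1 (2.14) rose, whereas Apoe fell (-1.35). Of 27 glycolytic genes, 8 were called higher and 13 lower (median -0.52), and 4 and 8 without the replicate 3 arrays. Ldha, lactate dehydrogenase A, measured 2341, 2081 and 1922 in the spleen and 439, 304 and 403 in the lymph node (-2.48), and Pgam1 (-2.0) and hexokinase Hk2 (-1.86) fell. Eno2 measured 90.9, 94.5 and 133 in the spleen and 1178, 1998 and 1984 in the lymph node (4.0), and Slc2a6 (3.11), a relative of the glucose transporters, and Pfkfb3 (2.65), which makes the activator of phosphofructokinase, rose.

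Of 35 oxidative phosphorylation genes, 1 was called higher and 10 lower (median -0.34), with Cycs at -1.01 and Cox5a, the 1 that rose, at 0.65. The lower count was 6 without lymph node replicate 2, 6 without spleen replicate 1, 20, 4 and 5 without both replicate 1, both replicate 2 and both replicate 3 arrays, and 22 with the replicate number as a block. Of 35 ribosomal protein genes, none was called higher and 7 lower (median -0.24), with Rpl12 at -1.46. That count was 15 without lymph node replicate 1, 18, 2 and 1 without both replicate 1, both replicate 2 and both replicate 3 arrays, and 18 with the block. These 2 counts therefore depend on which arrays enter, and so did the count over all genes. Over all genes, 3030 were called lower with all arrays and 4075 with the block. Without all replicate 1, all replicate 2 or all replicate 3 arrays, 3956, 1773 or 1761 of all genes were lower. A change of count alone is thus not particular to these 2 lists. Without lymph node replicate 1, 2886 of all genes were lower, under 3030, while the ribosomal count was 15, above 7.

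Receptors for growth factors and cytokines went both ways. Of 37 measured, 13 were called higher and 11 lower (median 0.14). Il7r measured 105, 85.6 and 111 in the spleen and 1281, 1438 and 1397 in the lymph node, and rose by 3.78 (SE 0.27, limma adjusted p = 1.55e-07). Il21r measured 274, 224 and 368 in the spleen and 2207, 3649.8 and 4477 in the lymph node (3.55). Ifngr1, the ligand-binding chain for interferon gamma, measured 3252, 6269 and 6150.5 in the spleen and 372, 429.6 and 448 in the lymph node (-3.59), whereas its partner Ifngr2 was not called (0.05, limma adjusted p = 0.912). Kit (-2.63), Tgfbr2 (-1.49) and the decoy receptor Il1r2 (-4.13) fell, and Flt3, the growth factor receptor that sustains dendritic cells, was not called (0.43, limma adjusted p = 0.308).

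The same organs were compared on the 6 control arrays, whose means shared no array with those labelled Cre. Both comparisons came from the same fit of all 12 arrays with a shared spread, so their calls were not fully separate. There, 2581 genes (12.9%) were called higher and 2626 (13.2%) lower in the lymph node. Of the 2618 and 3030 genes called on the arrays labelled Cre, 2080 and 2448 were called the same way in the controls, and none the opposite way. For the 969 genes called beyond 2-fold, all had the same sign in the controls, and the control difference was a median of 0.98 times the other (range 0.53 to 1.40). The difference between both organ differences was tested directly, as the interaction of organ and genotype label over all 12 arrays. limma called 0 of 19938 genes (0%), while 326 (1.64%) passed 0.05 before adjustment. With no difference and independent arrays a share of about 0.05 would pass, so these 326 genes are no sign of a difference. A block for the replicate number also gave 0 calls and 1145 genes (5.74%) before adjustment. Array weights gave 3 calls and 3707 genes before adjustment, and leaving out all replicate 1 arrays gave 0 calls and 1670. Over the alternatives the count before adjustment ran from 120, without all replicate 2 arrays, to 3707, so it depended on the setting. Without all replicate 3 arrays, whose Cd40 values went against their labels, limma called 0 genes with 2 arrays a group. Whether the genotype labels of replicate 3 were exchanged was not tested, and this comparison and the Cd40 values below rest on those labels.

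For 18483 genes (92.7%) the 95% confidence interval of the interaction lay within a 2-fold change either way, and for 775 of the 969. The median half-width of that interval was 0.42 before any adjustment over genes. Larger interactions than this were not called either, as the values below show. Cd40 rose by 2.21 on the control arrays against 2.41 on those labelled Cre, an interaction of 0.20 (95% confidence interval -1.0 to 1.4). Xcr1 fell by 3.71 against 3.55, an interaction of 0.16 (-0.50 to 0.82). Among the smallest unadjusted p-values was that of Pgm2l1, which makes sugar bisphosphates. It fell by 1.56 on the arrays labelled Cre and by 0.86 on the control arrays, an interaction of -0.71 (SE 0.15, limma unadjusted p = 0.000352, adjusted p = 1), and its adjusted p was 0.0262 with array weights. The others with small unadjusted p were Slc25a14 (-0.67), Rpgr (-0.65), Arv1 (-0.63) and Sdr42e1 (-0.51) in that direction, and A430093F15Rik (0.63), Sbpl (0.55), Ifna13 (0.51, at background in both organs), Galnt15 (0.48) and 2410018L13Rik (0.46) in the other, each with a limma adjusted p of 1.

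**Figure D5:**
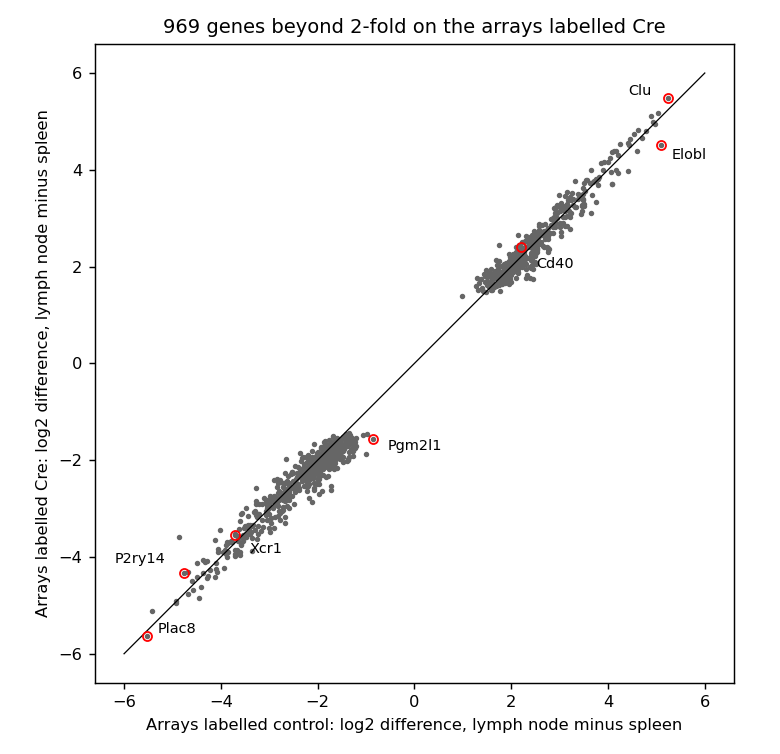
Each point is 1 of the 969 genes called beyond 2-fold on the arrays labelled Cre, with its log2 difference, lymph node minus spleen, on the control arrays (x axis) and on the arrays labelled Cre (y axis); the line marks equal differences and red rings mark named genes. The points lie along the line, with a median ratio of control to Cre difference of 0.98, and all have the same sign on both axes.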

How the data were processed

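Total RNA of sorted cDC1 was labelled as biotinylated cDNA with a kit for 100 pg to 2 ng of input and hybridised to 1 Affymetrix array per sample, per the labels. The authors deposited 1 table of linear intensity values for 12 arrays, and the submitters' processing notes name RMA and Affymetrix Expression Console. Versions and the genome build of the array annotation are not given in the sources used here, so no position of a probe set is given. The 4 promoters printed carry the positions of the RefSeq table, in GRCm38.p6. No column was identical to another.

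The table held 28853 probe sets. Of these, 21789 had 1 gene symbol in the platform annotation, 1621 had several and 5443 were not listed. The brightest probe set was kept for the 999 genes with more than 1, which left 19938 genes. Array medians were 66.1 to 74.4, and values ran from 8.227 to 20397.623. An array has no sequencing depth, so the number of arrays, 3 a group, limits the precision.

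Intensities were put on the log2 scale and fitted with limma 3.58.1 (lmFit and eBayes, all 4 groups sharing 1 estimate of the spread) in R 4.3.3, with Benjamini-Hochberg adjustment over all genes and a threshold of 0.05. The treat test used a log2 threshold of 1. On simulated data for 19938 genes, the fit recovered 92% of 100 genes changed by 1 and 100% of 100 changed by 2 on the log2 scale, with 13 false calls. In the simulation the noise was independent between arrays and no other gene changed. In the real data arrays deviated together and 28.3% of genes were called. The simulation therefore checks the code, and its rates do not carry over to these data.

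Named genes were Cd40, Xcr1, the 20 largest called rises and 20 falls among genes whose 6 arrays did not overlap and whose brighter group was above background on all 3 arrays, the 5 smallest interaction p each way, up to 14 members of each list (the largest differences each way and the genes that define it) and 4 promoters. The members and lists were chosen with earlier results of these data known. Of 931 genes in 36 lists, 842 were measured.

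On the arrays labelled Cre, deviations from the group means correlated at 0.573, 0.428 and 0.317 between same-numbered arrays of both organs, and at -0.501 to 0.395 between arrays of different numbers. Lymph node replicate 2 with spleen replicate 3 gave 0.395, above the 0.317 of the replicate 3 pair. These values set replicate 1 apart from the other replicates and do not show 3 separate pairs. The replicate numbers, taken from the titles, were treated as pairing in the blocked alternative. Other alternatives were array weights, other scalings and probe set rules, an offset, a filter on dim genes and arrays left out. Probe sets with several symbols were not used. Figures were drawn with matplotlib 3.10.9.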

Additional observations from a re-analysis of the deposited data

Results flagged for a closer look

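A signal was present in data that the gene comparisons do not use. Of 5443 probe sets with no gene in the platform annotation, 515 (9.46%) were called by limma at an adjusted p under 0.05 between lymph node and spleen on the arrays labelled Cre, 253 higher and 262 lower. That share was under the 28.3% of the genes tested. These probe sets were fitted and adjusted as a set of their own, apart from the genes. Change beyond 2-fold was called for 51 higher and 41 lower. The largest rise was that of probe set 10565990, at 3.94 on the log2 scale, and the largest fall that of probe set 10347335, at -4.13. Of these probe sets, 3994 were above background on at least 3 of the 6 arrays. Groups of 3 arrays are too small for a test of outliers, and none was made.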

How the results depend on the processing

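Over 20 alternatives, Cd40, Xcr1 and the 40 genes with the largest rises and falls kept their direction and their side of the threshold in all 840 results, with Cd40 at 1.99 to 2.75 and Xcr1 at -3.81 to -3.40. The 40 were picked for large differences on these arrays, which favours this. Of the list medians, 103 results moved by more than their spread over the same-numbered pairs and 617 did not. Of the list counts, 54 results were clearly larger, 100 clearly smaller and 1286 neither. The replicate number as a block, with the pairing described above, gave 4093 genes higher and 4075 lower. When the replicate 1 arrays were also left out, 611 were higher and 865 lower beyond 2-fold. The block changed the call of none of these 42 genes. Array weights gave 4786 higher and 4147 lower, 602 and 863 beyond 2-fold, and 3 interactions. Without all replicate 1 arrays, 617 genes were higher and 873 lower beyond 2-fold. Without all replicate 3 arrays the counts were 1333 higher, 1761 lower, and 234 and 299 beyond 2-fold, and 1321 and 1761 of the genes called on all arrays kept their call. Without all replicate 2 arrays, an alternative chosen after seeing the data like the block with arrays left out, they were 1308, 1773, 236 and 327. These settings have fewer arrays a group. Leaving out 1 array at a time gave 2007 to 2514 higher, 2526 to 2976 lower, 326 to 460 and 477 to 641 beyond 2-fold, and 0 interactions. The share of called genes that were higher was 46.4%, and 41.7% to 53.6% over the alternatives. Taking the median of a gene's probe sets turned the direction of 5 called genes. No list median beyond 0.1 either way changed sign.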
